A study of Homo sapiens with 9 samples.

Results

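Autotaxin (gene ENPP2) and the receptors and phosphatases of its product, lysophosphatidic acid (LPA), make up a set of 8 genes: ENPP2, LPAR1, LPAR2, LPAR3, LPAR6, PLPP1, PLPP2 and PLPP3. They were matched by gene symbol among the 58299 genes of a read count table made from AC16 cells. ENPP2 was chosen because its rise after treatment was among the strongest in these data, so its values are given as a description, without a test. The other 7 genes were chosen by family name and were tested.

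AC16 is an immortalised human line obtained by fusing adult ventricular heart muscle cells with SV40-transformed fibroblasts. The 9 libraries form 3 groups of 3: cells given 100 nM CDDO-Me over 72 h, cells given 100 nM CDDO-Me over 24 h, and vehicle cells given 0.1% DMSO over 72 h. CDDO-Me, also called bardoxolone methyl, binds KEAP1 and so activates the transcription factor NRF2, which KEAP1 otherwise holds down, and some titles shorten its name to CDDO. All cells grew in medium with 10% fetal bovine serum, and polyadenylated RNA was made into libraries that do not keep the strand. No DMSO library of 24 h was analysed here, so in the 24 h comparison CDDO-Me and the length of treatment cannot be told apart. The labels give the length of treatment and no culture time. It is not stated whether the replicates of a group are cultures of their own, and p-values here measure no more than the spread between libraries, which may be technical. In bulk RNA, fewer cells of a type and less RNA per cell cannot be told apart.

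Autotaxin is a secreted lysophospholipase D that cuts choline from lysophosphatidylcholine and leaves LPA, a lipid messenger that serum also contains. LPA acts on G protein-coupled receptors of separate families, LPAR1 to LPAR3 of the EDG family and LPAR4 to LPAR6 related to the P2Y receptors. The signal runs through G proteins, calcium and the transcription factors SRF and YAP. It is ended by the membrane enzymes PLPP1 to PLPP3, whose catalytic side faces outward and which remove the phosphate from LPA and from sphingosine 1-phosphate.

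Total counts were 18801683 to 20704953 in the CDDO-Me 72 h libraries, 16898977 to 27910031 in the CDDO-Me 24 h libraries and 19382833 to 20570568 in the DMSO libraries. Levels below are counts after library size scaling to a total shared by all libraries (CPM), or RPKM, the same value per kilobase of exon, where genes are compared with each other. CDDO-Me 24 h replicate 3 stood apart from the other libraries of its group, its biological coefficient of variation being 19.9 to 20.8% against them and 12.8 to 13.5% against the CDDO-Me 72 h libraries. DMSO replicate 1 differed from its group by 12.1 to 13.8%, and the other pairs within groups by 2.72 to 7.77%. NQO1, a target gene of NRF2, averaged 3345 ± 40.3 CPM at 72 h, 1877 ± 256 CPM at 24 h and 449 ± 40.3 CPM in DMSO (SD, n = 3 each). HMOX1, another NRF2 target, had 821, 746 and 879 CPM at 72 h, 146, 146 and 644 CPM at 24 h, and 22.1, 23.6 and 25.8 CPM in DMSO, and the high 24 h value was that of replicate 3. None of 10 heart muscle markers, among them TNNT2, MYH6 and MYH7, reached 1 CPM in any library, while all 10 fibroblast markers passed the filter on low counts. The adipocyte marker list summed to at most 0.516 CPM in any library, with ADIPOQ, LEP and FABP4 at 0 counts in all libraries.

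RefSeq promoter windows of 300 bases, 250 before and 50 after an annotated start, were used for 6 of the 8 genes (GRCh38.p14, 11 windows). NRF2 binds the antioxidant response element, so the core TGACNNNGC was searched on both strands (reverse complement GCNNNGTCA). It occurred in 2 of these 11 windows, against 13.3% of all 35116 windows. The 2 windows are shown because they held a match. Capitals mark the match, and both sequences run 5′ to 3′ on the minus strand of chromosome 9 for LPAR1 (chr9:111037580-111037879, 1 of its 6 windows) and of chromosome 19 for LPAR2 (chr19:19628171-19628470).
LPAR1: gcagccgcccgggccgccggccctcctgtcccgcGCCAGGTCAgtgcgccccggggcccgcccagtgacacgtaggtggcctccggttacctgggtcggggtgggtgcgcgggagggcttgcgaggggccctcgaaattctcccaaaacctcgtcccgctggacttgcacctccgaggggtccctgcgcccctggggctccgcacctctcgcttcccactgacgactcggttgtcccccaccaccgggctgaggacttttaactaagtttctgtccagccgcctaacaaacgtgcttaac
LPAR2: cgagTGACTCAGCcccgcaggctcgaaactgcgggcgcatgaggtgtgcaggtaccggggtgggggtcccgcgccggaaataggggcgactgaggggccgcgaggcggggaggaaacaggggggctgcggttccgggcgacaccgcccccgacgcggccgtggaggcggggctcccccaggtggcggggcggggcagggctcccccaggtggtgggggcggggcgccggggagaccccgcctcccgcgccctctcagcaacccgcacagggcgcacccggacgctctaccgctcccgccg

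Counted from the annotated start, the LPAR1 match begins at -216 and the LPAR2 match at -246. The LPAR2 match also holds TGACTCA, the AP-1 site, which occurred in 4.95% of all windows, and 1.12% of windows held both motifs. A match describes letters in the window and is not a measured site. The window of NQO1, 300 bases long, held no match of the core, and sequence outside the windows was not searched. No window of ENPP2 or PLPP1 was searched, so the search says nothing about these genes.

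ENPP2 (ENSG00000136960, GRCh38 chromosome 8, 119557086 to 119673453, minus strand) had 190, 190 and 184 CPM in the CDDO-Me 72 h libraries, 102, 118 and 114 CPM in the CDDO-Me 24 h libraries, and 34.5, 39.1 and 47.0 CPM in the DMSO libraries. The 72 h libraries were all above the 24 h libraries, and these were all above the DMSO libraries, with no overlap. The group means were 188 ± 3.79 CPM at 72 h, 111 ± 8.12 CPM at 24 h and 40.2 ± 6.29 CPM in DMSO (SD, n = 3 each). The difference on the log2 scale was 2.23 ± 0.10 (SE) at 72 h against DMSO, 4.68-fold, and 1.47 ± 0.10 at 24 h against DMSO, 2.77-fold. Between 72 h and 24 h of treatment the log2 difference was 0.76 ± 0.10, 1.69-fold. CDDO-Me 24 h replicate 3, which stood apart over all genes, lay between the other 24 h libraries for ENPP2. Of the exonic bases of ENPP2, 2.41% are shared with the pseudogene CYCSP23, which had 0 counts in every library.

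Ordered by log2 fold change from the highest down, ENPP2 stood 37th of 14965 tested genes at 72 h against DMSO, 67th at 24 h against DMSO and 164th at 72 h against 24 h. Its neighbours in the 72 h order were FTH1, the ferritin heavy chain, at 2.23 and the ferritin light chain pseudogene FTLP3 at 2.15. In the 24 h order they were ANGPT1, a ligand of the endothelial receptor TEK, at 1.48 and ZNF747-DT at 1.45.

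**Figure D1:**
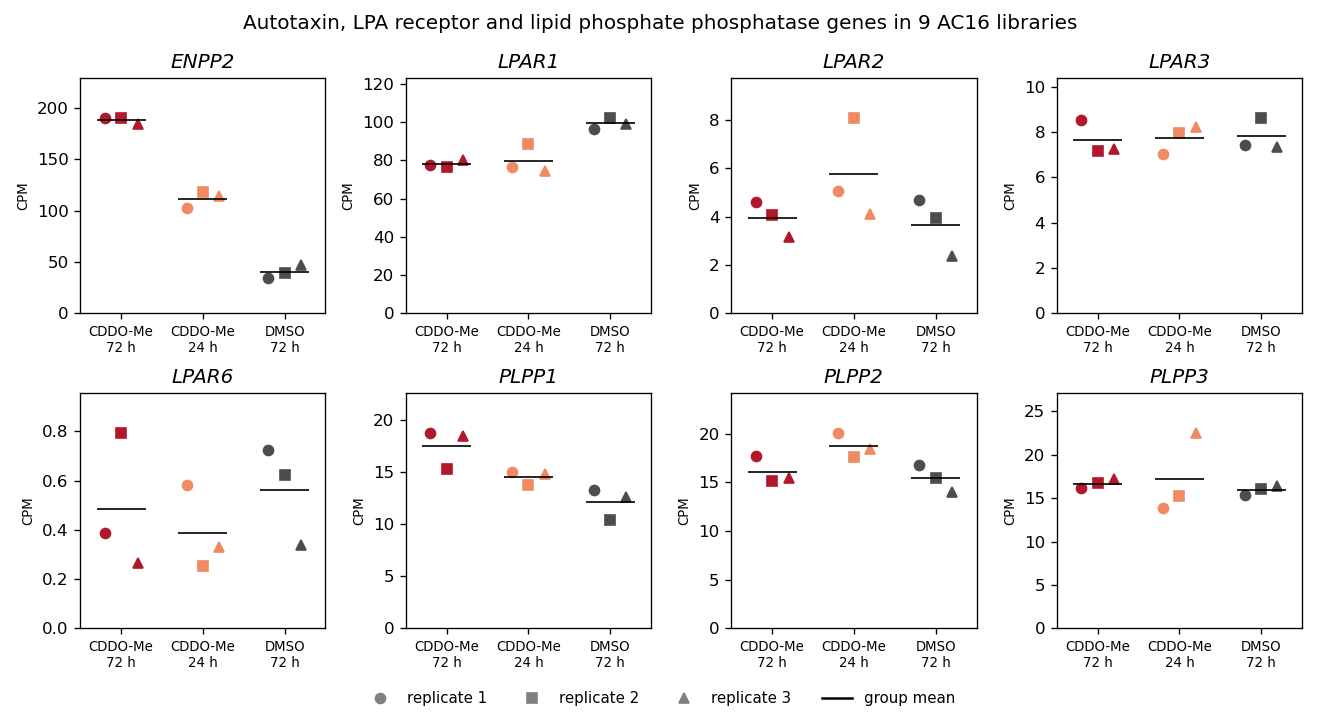
Level of each of the 8 genes (CPM, axes start at 0) in every library, with points for the 3 libraries of CDDO-Me 72 h, CDDO-Me 24 h and DMSO 72 h and a bar at each group mean. ENPP2 has 3 separate groups of points, LPAR1 is lower in all treated libraries than in all DMSO libraries, and PLPP1 is higher in all 72 h libraries than in all 24 h and DMSO libraries.

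Of the 7 receptor and phosphatase genes, all tested, edgeR called 1 higher (PLPP1) and 1 lower (LPAR1) at 72 h against DMSO, where 6.02% of all tested genes were called (2.89% higher and 3.13% lower). At 24 h against DMSO edgeR called none of the 7, against 2.15% of all tested genes (0.969% higher and 1.18% lower). Of the 7 genes, 3, namely LPAR1, LPAR2 and PLPP2, had an unadjusted edgeR p under 0.05 there. The share of all tested genes under that unadjusted cutoff was not computed, so no conclusion is drawn from this count. DESeq2 called 1 of the 7 and 546 of all genes, and limma-voom called none of the 7. At 72 h against 24 h edgeR, DESeq2 and limma-voom called none of the 7, and none had an unadjusted p under 0.05, while edgeR called 1.02% of all tested genes (0.448% higher and 0.568% lower). The median log2 fold change of the 7 was 0.06 at 72 h and 0.13 at 24 h against DMSO, beside medians over all tested genes of -0.000932 and 0.0067.

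LPAR1 (ENSG00000198121, chromosome 9, 110873263 to 111038458, minus strand), the most widely expressed LPA receptor, fell at 72 h. It had 77.4, 76.3 and 80.4 CPM at 72 h, 76.7, 88.6 and 74.3 CPM at 24 h, and 96.4, 102 and 99.1 CPM in DMSO. Every treated library was below every DMSO library, and the 72 h and 24 h libraries overlapped. At 72 h the log2 fold change against DMSO was -0.35 ± 0.08 (SE; 0.786-fold, edgeR quasi-likelihood adjusted p = 0.0186). At 24 h it was -0.31 ± 0.08 (0.804-fold) with an adjusted p of 0.0622, short of the threshold of 0.05. The 72 h call was lost when DMSO replicate 2 was left out (adjusted p = 0.0859) and when any library of the 72 h group was (0.103, 0.113 and 0.0704 for replicates 1, 2 and 3). The 24 h difference passed the threshold in 6 of 21 alternatives: with DESeq2 (adjusted p = 0.0152), with sample weights in limma-voom (0.0221), without a filter on low counts (0.0342), without 24 h replicate 2 (0.0285) or 3 (0.0349), and without 24 h replicate 3 and DMSO replicate 1 together (0.00619).

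LPAR2 (ENSG00000064547, chromosome 19, 19623668 to 19628930, minus strand) is an EDG-family receptor whose tail binds PDZ-domain proteins. It had 4.60, 4.08 and 3.15 CPM at 72 h, 5.06, 8.09 and 4.09 CPM at 24 h, and 4.70, 3.95 and 2.37 CPM in DMSO. The groups overlapped, and 24 h replicates 1 and 2 were the highest libraries. Against DMSO the log2 fold change was 0.11 ± 0.30 (SE) at 72 h (edgeR adjusted p = 0.892) and 0.64 ± 0.29 at 24 h (edgeR adjusted p = 0.365). Without CDDO-Me 24 h replicate 3 the 24 h value was 0.85 with an adjusted p of 0.0482, and it also passed with sample weights in limma-voom (0.0406) and with DMSO replicate 1 left out as well (0.00223).

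LPAR3 (ENSG00000171517, chromosome 1, 84811602 to 84893213, minus strand), an EDG-family receptor with a preference for LPA with unsaturated acyl chains, stayed between 7.04 and 8.64 CPM in all 9 libraries. Its means were 7.64 ± 0.76 CPM at 72 h, 7.73 ± 0.618 CPM at 24 h and 7.80 ± 0.721 CPM in DMSO (SD, n = 3 each). The log2 fold change against DMSO was -0.03 ± 0.15 (SE) at 72 h (edgeR adjusted p = 0.947) and -0.01 ± 0.15 at 24 h (edgeR adjusted p = 0.987).

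LPAR6 (ENSG00000139679, chromosome 13, 48389567 to 48444704, minus strand), a P2Y-related receptor known for its part in human hair growth, was near the limit of detection. It had 8, 15 and 5 counts at 72 h, 10, 5 and 9 counts at 24 h, and 14, 12 and 7 counts in DMSO. A count of 0 allows up to 3 counts, which is 0.107 to 0.178 CPM at these depths and covers counting error only. The groups overlapped, and the log2 fold change against DMSO was -0.21 ± 0.53 (SE) at 72 h (edgeR adjusted p = 0.878) and -0.56 ± 0.54 at 24 h (edgeR adjusted p = 0.735), so a change was not detectable at this depth. LPAR6 lies within the span of RB1, the retinoblastoma gene, on the opposite strand and shares no exonic base with it. The libraries do not keep the strand, so reads of unspliced RB1 RNA could be counted for LPAR6, which was not tested. RB1 averaged 103 CPM at 72 h, 92.7 CPM at 24 h and 104 CPM in DMSO.

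PLPP1 (ENSG00000067113, chromosome 5, 55424854 to 55535050, minus strand), the lipid phosphate phosphatase 1, rose at 72 h. It had 18.8, 15.3 and 18.5 CPM at 72 h, 15.0, 13.8 and 14.8 CPM at 24 h, and 13.3, 10.4 and 12.6 CPM in DMSO. The 72 h libraries were all above the 24 h libraries, and these all above the DMSO libraries. The log2 fold change against DMSO was 0.53 ± 0.13 (SE) at 72 h (1.45-fold, edgeR adjusted p = 0.0255) and 0.26 ± 0.13 at 24 h (edgeR adjusted p = 0.435). At 72 h against 24 h it was 0.27 ± 0.13 (edgeR adjusted p = 0.386). The 72 h call was lost when DMSO replicate 2 (adjusted p = 0.127) or 3 (0.0504) was left out, and likewise for CDDO-Me 72 h replicate 1 (0.142) or 3 (0.139).

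PLPP1 shares 481 exonic bases, 23.9% of its exonic length, with MTREX, an RNA helicase gene on the opposite strand. Of the 50-base words in its transcripts, 22.6% also occur in transcripts of other genes on either strand. How reads were divided there is not given in the sources used here, so its level is uncertain. MTREX averaged 98.7 ± 3.52 CPM at 72 h, 91.6 ± 11.1 CPM at 24 h and 97.8 ± 8.32 CPM in DMSO (SD, n = 3 each), and it was not called in either comparison with DMSO.

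PLPP2 (ENSG00000141934, chromosome 19, 281040 to 291504, minus strand), the lipid phosphate phosphatase 2, had 17.7, 15.2 and 15.4 CPM at 72 h, 20.1, 17.6 and 18.5 CPM at 24 h, and 16.8, 15.5 and 14.0 CPM in DMSO. The 24 h libraries were all above the DMSO libraries, and the 72 h libraries overlapped both. The log2 fold change against DMSO was 0.06 ± 0.12 (SE) at 72 h (edgeR adjusted p = 0.841) and 0.28 ± 0.12 at 24 h (edgeR adjusted p = 0.320). The 24 h value passed when 24 h replicate 3 and DMSO replicate 1 were both left out (0.0358).

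PLPP3 (ENSG00000162407, chromosome 1, 56494747 to 56645301, minus strand), the lipid phosphate phosphatase 3, is the member of its family known for its role in vessels and the heart. It had 16.2, 16.7 and 17.2 CPM at 72 h, 13.9, 15.3 and 22.6 CPM at 24 h, and 15.3, 16.0 and 16.4 CPM in DMSO. The highest value was that of CDDO-Me 24 h replicate 3. The log2 fold change against DMSO was 0.07 ± 0.16 (SE) at 72 h (edgeR adjusted p = 0.870) and 0.13 ± 0.15 at 24 h (edgeR adjusted p = 0.804). Without that library the 24 h value was -0.13 (edgeR adjusted p = 0.529). Of the exonic bases of PLPP3, 10.9% are shared with ENSG00000284686, which had at most 0.104 CPM in any library.

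**Figure D2:**
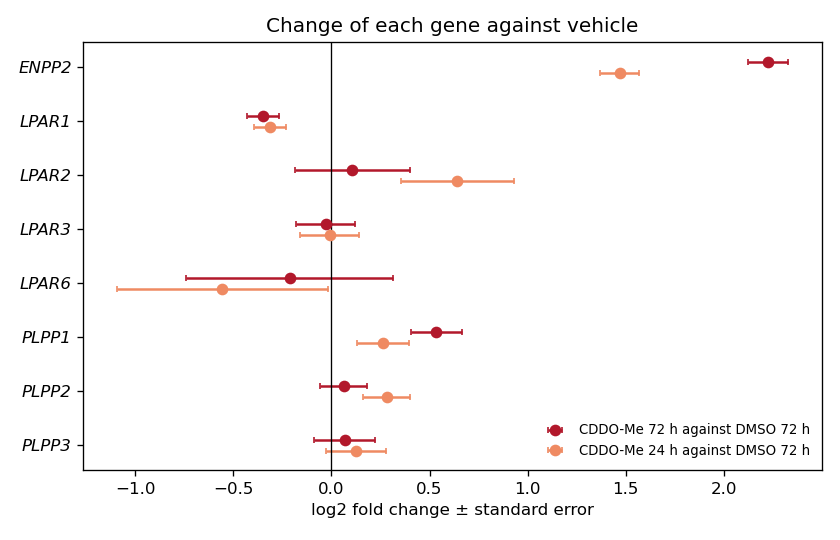
Log2 fold change of each of the 8 genes at 72 h and at 24 h of CDDO-Me, each against DMSO, with bars of 1 SE. ENPP2, shown as a description, lies at 2.23 and 1.47, while the other genes lie between -0.56 and 0.64, with PLPP1 and LPAR1 called at 72 h.

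Per length, LPAR1 was the leading receptor in every library. Its level was 18.8 ± 0.51 RPKM at 72 h, 19.2 ± 1.84 RPKM at 24 h and 23.9 ± 0.721 RPKM in DMSO (SD, n = 3 each). LPAR3 was near 2.16 RPKM at 72 h, 2.18 RPKM at 24 h and 2.20 RPKM in DMSO, and LPAR2 was at 1.32, 1.93 and 1.23 RPKM in the same groups. LPAR1 made up 79.5 to 82.6% of the summed RPKM of LPAR1 to LPAR6 at 72 h, 79.0 to 79.5% at 24 h and 83.1 to 86.9% in DMSO. The treated libraries were all below the DMSO libraries in that share.

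Of PLPP1, PLPP2 and PLPP3, PLPP1 had the highest level, with 8.70 ± 0.956 RPKM at 72 h, 7.21 ± 0.333 RPKM at 24 h and 6.01 ± 0.754 RPKM in DMSO (SD, n = 3 each). PLPP3 followed at 3.16, 3.26 and 3.01 RPKM, and PLPP2 at 2.28, 2.65 and 2.18 RPKM in the same groups. PLPP1 made up 30.0 to 33.6% of the summed RPKM of PLPP1 to PLPP6 at 72 h, 27.7 to 29.1% at 24 h and 21.5 to 25.6% in DMSO. These shares did not overlap between groups, and the overlap with MTREX applies to them too. In the same sum PLPP4 was at 3.26 RPKM at 72 h, 3.40 RPKM at 24 h and 6.13 RPKM in DMSO. PLPP5 was at 6.40, 6.30 and 5.75 RPKM in the same groups. In DMSO the mean levels of PLPP4 and PLPP5 were thus near that of PLPP1, and the lower PLPP4 after treatment also raises the share of PLPP1.

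ENPP2 changed its place in this order. It was above LPAR1 at 72 h, with 28.0 ± 0.564 RPKM, below LPAR1 at 24 h with 16.5 ± 1.21 RPKM, and at the level of PLPP1 in DMSO with 5.98 ± 0.934 RPKM (SD, n = 3 each), where the libraries of ENPP2 and PLPP1 overlapped. The ratio of ENPP2 to LPAR1 in RPKM was 1.41 to 1.54 at 72 h, 0.822 to 0.947 at 24 h and 0.221 to 0.293 in DMSO. Neighbours in the order whose libraries overlapped were PLPP2 and LPAR3 at 72 h, PLPP3 and PLPP2 as well as LPAR3 and LPAR2 at 24 h, and LPAR3 and PLPP2 in DMSO. LPAR6 was last in every group, at 0.0892 to 0.129 RPKM.

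**Figure D3:**
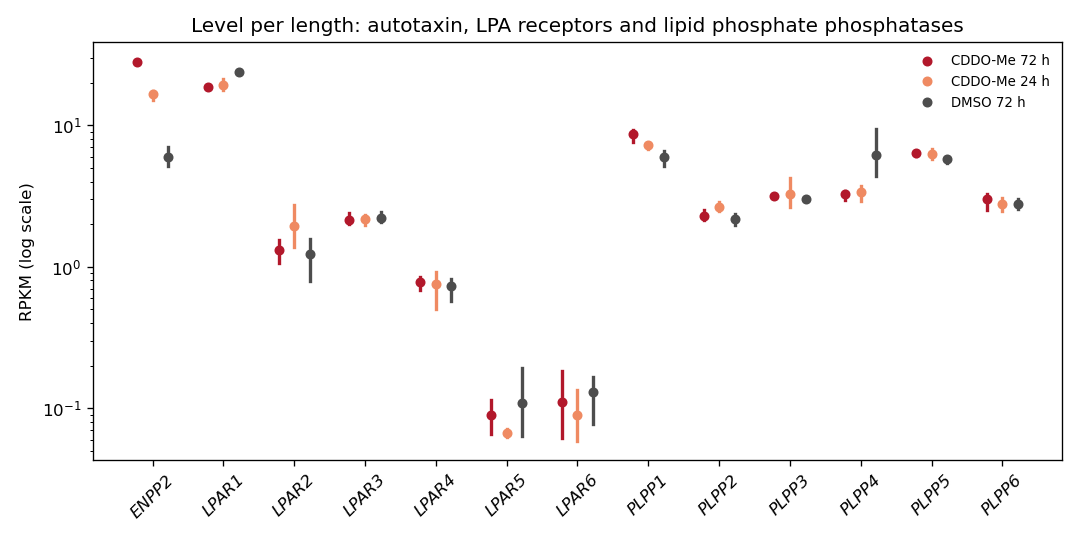
Level per length (RPKM, log axis) of the 8 genes and of LPAR4, LPAR5 and PLPP4 to PLPP6 in CDDO-Me 72 h, CDDO-Me 24 h and DMSO 72 h, with points at the mean of 3 libraries and bars from the lowest to the highest. LPAR1 leads the receptors in each group, and ENPP2 lies above LPAR1 at 72 h, below it at 24 h and beside PLPP1 in DMSO.

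The other genes of LPA metabolism and signalling were taken from 8 lists of 87 genes, of which 74 were tested. At 72 h against DMSO edgeR called 2 higher and 5 lower, at 24 h against DMSO 1 higher and 5 lower, and at 72 h against 24 h 3 higher and none lower. These are 7, 6 and 3 of the 74 genes, in a fit that called 6.02%, 2.15% and 1.02% of all tested genes. Their median log2 fold changes were -0.00848, 0.000885 and 0.00847 in these comparisons, near those of all tested genes. Without CDDO-Me 24 h replicate 3 the counts were 3 higher and 8 lower, 7 higher and 14 lower, and 12 higher and 7 lower, in a fit that called 12.9%, 10.8% and 12.0% of all tested genes.

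Genes that make LPA or its precursors by other routes had 12 of 15 members tested, and GPAT3 rose in both comparisons with DMSO. Among all tested genes 2.89% were called higher at 72 h and 0.969% at 24 h. GPAT3, a glycerol-3-phosphate acyltransferase that forms LPA inside the cell, had 6.53, 7.63 and 6.40 CPM at 72 h, 6.11, 7.44 and 7.67 CPM at 24 h, and 2.79, 1.87 and 2.27 CPM in DMSO. The treated libraries were all above the DMSO libraries, and the treated groups overlapped. Against DMSO its log2 fold change was 1.57 ± 0.20 (SE; edgeR adjusted p = 0.000226) at 72 h and 1.61 ± 0.20 (edgeR adjusted p = 0.000428) at 24 h. The median over the list was 0.16 at 72 h and 0.12 at 24 h.

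Of the 9 tested genes among the other lipid phosphate phosphatases and their relatives, edgeR called PLPP4 lower at 72 h. Among all tested genes 3.13% were called lower there. PLPP4 had 5.28, 6.04 and 6.13 CPM at 72 h, 6.69, 5.21 and 6.32 CPM at 24 h, and 16.7, 8.32 and 7.83 CPM in DMSO. The treated libraries were all below the DMSO libraries, of which replicate 1 had the high value. Its log2 fold change was -0.91 ± 0.25 (SE; edgeR adjusted p = 0.0497) at 72 h and -0.85 (edgeR adjusted p = 0.119) at 24 h against DMSO. Without DMSO replicate 1 the 72 h value was -0.47 with an adjusted p of 0.164, and the call was also lost without any 72 h replicate (0.149 to 0.203) and without 24 h replicate 1 (0.0608) or 2 (0.0603). It did not pass with limma-voom (0.105), in edgeR without robust estimation (0.0531) or with only the compared groups in the fit (0.0651).

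None of the 11 acyltransferases that consume LPA or related lipids was called by edgeR, DESeq2 or limma-voom in any comparison. An unadjusted p under 0.05 was reached by 1 of them at 72 h against DMSO and by none in the other comparisons. The share of all tested genes under that cutoff was not computed. With sample weights limma-voom called 1 higher at 72 h against DMSO, 2 higher at 24 h against DMSO and 3 lower at 72 h against 24 h. Without CDDO-Me 24 h replicate 3 edgeR called none, 2 higher and 3 lower in these comparisons. Over all genes sample weights gave 2593, 1656 and 2918 calls, and edgeR without that library called 12.9%, 10.8% and 12%. The most expressed acyltransferase was MBOAT7, which joins arachidonic acid to lysophosphatidylinositol, at 331 CPM at 72 h, 359 CPM at 24 h and 356 CPM in DMSO. Of 6 other ENPP ectoenzymes 2 were tested and neither was called by these tools. ENPP1, which forms pyrophosphate outside the cell, had 34.3 CPM at 72 h, 41.8 CPM at 24 h and 41.3 CPM in DMSO. Of these ENPP genes 1 had an unadjusted p under 0.05 at 72 h against DMSO and 1 at 72 h against 24 h. These counts too have no share of all tested genes beside them. At 72 h against 24 h 1 was called lower with sample weights and without 24 h replicate 3. LPAR4 was at 2.43 CPM at 72 h, 2.36 CPM at 24 h and 2.27 CPM in DMSO and was not called in any comparison, and LPAR5 was too low to be tested.

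In the sphingosine 1-phosphate branch, whose lipid the PLPP enzymes also dephosphorylate, 9 of 11 genes were tested and SPHK1 fell at 72 h. Among all tested genes 3.13% were called lower there. SPHK1, a sphingosine kinase that makes sphingosine 1-phosphate, averaged 39.2 ± 0.103 CPM at 72 h, 59.6 ± 14.1 CPM at 24 h and 76.2 ± 22.9 CPM in DMSO (SD, n = 3 each). Its DMSO libraries had 102, 69.1 and 57.8 CPM and all lay above the 72 h libraries. The log2 fold change against DMSO was -0.96 ± 0.21 (SE; edgeR adjusted p = 0.0298) at 72 h and -0.35 (edgeR adjusted p = 0.551) at 24 h. The 72 h call was lost without any 72 h replicate (0.116 to 0.121), without DMSO replicate 2 (0.0562) and without 24 h replicate 1 (0.0577).

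Of 17 tested genes of G proteins and their effectors, edgeR called RHOB higher at 72 h against DMSO, where 2.89% of all tested genes were called higher, and at 72 h against 24 h, where 0.448% were. DESeq2 called 1 higher and 2 lower at 72 h against DMSO, 1 lower at 24 h against DMSO and 1 higher at 72 h against 24 h. Over all genes DESeq2 called 546 at 24 h against DMSO and 388 at 72 h against 24 h. Without CDDO-Me 24 h replicate 3 edgeR called 2 higher and 2 lower, 4 lower, and 7 higher in the same 3 comparisons. That fit called 12.9%, 10.8% and 12% of all tested genes. RHOB, a small GTPase induced as an immediate-early gene, had 185, 175 and 196 CPM at 72 h, 61.5, 55.0 and 80.2 CPM at 24 h, and 83.2, 80.1 and 84.3 CPM in DMSO. The 72 h libraries were above all others. On the log2 scale its fold change was 1.16 ± 0.11 (SE; edgeR adjusted p = 2.55e-05) at 72 h against DMSO, -0.33 ± 0.11 (edgeR adjusted p = 0.187) at 24 h against DMSO and 1.49 ± 0.11 (edgeR adjusted p = 1.09e-05) at 72 h against 24 h. RHOA, the small GTPase through which LPA builds stress fibres, was at 508 CPM at 72 h, 463 CPM at 24 h and 493 CPM in DMSO and was not called.

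Of 12 target genes of SRF and YAP, edgeR called 3 lower at 72 h against DMSO and 5 lower at 24 h against DMSO, and 2 higher at 72 h against 24 h. Among all tested genes 3.13% were lower at 72 h against DMSO, 1.18% were lower at 24 h against DMSO and 0.448% were higher at 72 h against 24 h. Without CDDO-Me 24 h replicate 3 these counts were 4 lower, 9 lower and 4 higher. That fit called 12.9%, 10.8% and 12% of all tested genes in either direction. The list's median log2 fold change was -0.17 at 72 h and -0.81 at 24 h against DMSO, and 0.23 between 72 h and 24 h. TPM1, MYH9 and ACTA2, which encode a tropomyosin, a nonmuscle myosin heavy chain and smooth muscle actin, were called against DMSO at both times.

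TPM1 averaged 321 ± 8.02 CPM at 72 h, 303 ± 38.9 CPM at 24 h and 510 ± 113 CPM in DMSO (SD, n = 3 each). Its log2 fold change was -0.67 ± 0.13 (SE; edgeR adjusted p = 0.0103) at 72 h and -0.75 ± 0.13 (edgeR adjusted p = 0.0106) at 24 h. MYH9 had a log2 fold change of -0.43 ± 0.10 (edgeR adjusted p = 0.0156) at 72 h and -0.41 ± 0.10 (edgeR adjusted p = 0.0382) at 24 h. ACTA2, also a member of the smooth muscle marker list, averaged 5.20 ± 1.37 CPM at 72 h, 4.35 ± 0.612 CPM at 24 h and 10.2 ± 3.14 CPM in DMSO. Its log2 fold change was -0.98 ± 0.23 (edgeR adjusted p = 0.0224) at 72 h and -1.24 ± 0.24 (edgeR adjusted p = 0.0116) at 24 h. The 24 h calls of MYH9 and ACTA2 fall outside the rule for named genes and were named after their values were seen.

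CCN1, a matricellular protein gene and a standard YAP target, was low in the 24 h group. It had 1877, 1853 and 1864 CPM at 72 h, 966, 891 and 955 CPM at 24 h, and 1639, 1846 and 1918 CPM in DMSO. The 24 h libraries were below all others, and the 72 h and DMSO libraries overlapped. CCN1 had a log2 fold change of -0.94 ± 0.08 (SE; edgeR adjusted p = 2.04e-05) at 24 h against DMSO, 0.05 (edgeR adjusted p = 0.803) at 72 h against DMSO and 0.99 ± 0.08 (edgeR adjusted p = 1.83e-05) at 72 h against 24 h. SRF itself averaged 115 ± 1.4 CPM at 72 h, 89.1 ± 6.29 CPM at 24 h and 120 ± 7.85 CPM in DMSO. It fell at 24 h (log2 fold change -0.43 ± 0.08, edgeR adjusted p = 0.00845), and at 72 h its value was -0.07 (edgeR adjusted p = 0.705).

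The smooth muscle marker list summed to 213 to 231 CPM at 72 h, 180 to 270 CPM at 24 h and 263 to 433 CPM in DMSO, with overlap between 24 h and DMSO. TAGLN made up most of that sum, with 173 CPM at 72 h, 179 CPM at 24 h and 267 CPM in DMSO, and TAGLN and ACTA2 belong to the SRF and YAP list too. MYOCD, also on this list, fell most, with 2.55 CPM at 72 h, 4.46 CPM at 24 h and 15.9 CPM in DMSO. Its edgeR adjusted p against DMSO was 9.62e-06 at 72 h and 0.000313 at 24 h. ACTA2 was called lower as well, and TAGLN was lower in both treated groups but not called. The smooth muscle markers did not all move together. CNN1 was at 42.5 CPM at 72 h, 26.3 CPM at 24 h and 33.0 CPM in DMSO and was called higher at 72 h (edgeR adjusted p = 0.0499), and MYH11 was not called. The endothelial list summed to 7.74 to 8.27 CPM at 72 h, 10.9 to 12.3 CPM at 24 h and 13.2 to 15.5 CPM in DMSO. TEK made up most of that sum, with 7.01 CPM at 72 h, 9.50 CPM at 24 h and 12.5 CPM in DMSO. The other 4 endothelial markers averaged under 1 CPM in every group, and VWF was at 0.587, 0.863 and 0.525 CPM in the same order. The part of either list in the results above was not tested. Of the 72 h calls, that of TPM1 was lost without CDDO-Me 72 h replicate 1 or 3 (adjusted p = 0.0559 and 0.0514). The MYH9 call was lost without DMSO replicate 2 or any 72 h replicate (0.0809 to 0.0982), and the ACTA2 call without DMSO replicate 1 (0.0963) or 72 h replicate 1 (0.13) or 2 (0.12). At 24 h the SRF call was lost without DMSO replicate 2 (0.055) and the TPM1 call without 24 h replicate 1 (0.051), and with only the compared groups in the fit both were lost (0.0646 for SRF and 0.0522 for TPM1). The 24 h call of MYH9 was lost without any library other than DMSO replicate 3 and 24 h replicate 3 (0.0847 to 0.204), and with only the compared groups (0.211).

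**Figure D4:**
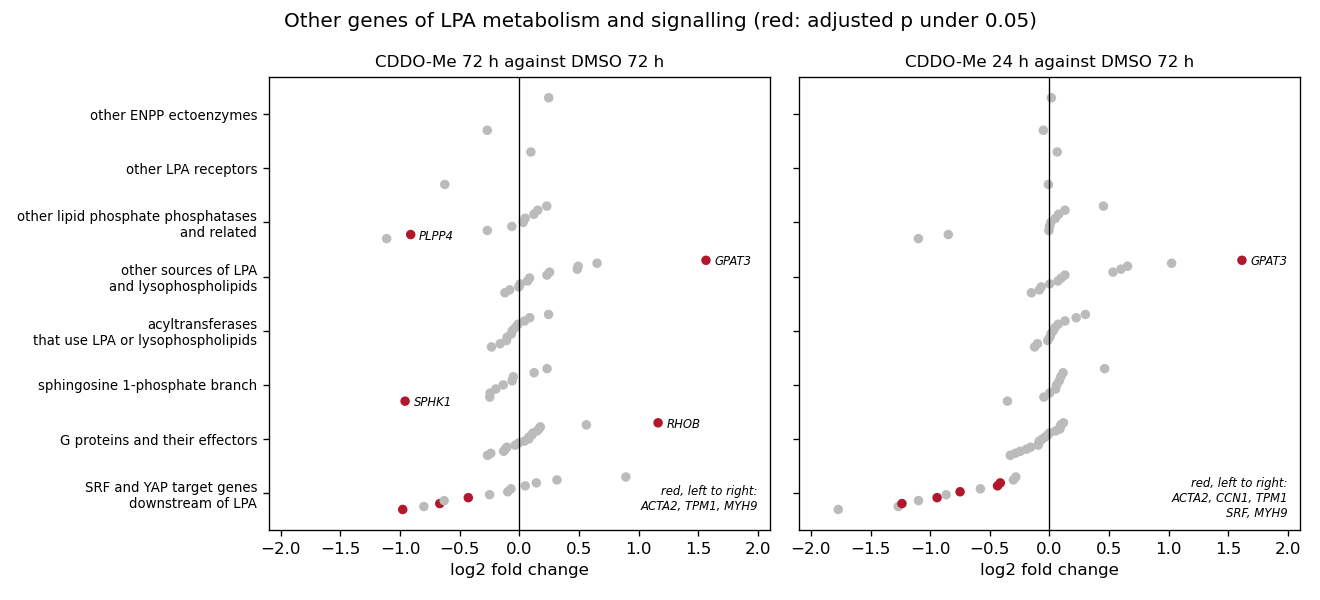
Log2 fold change of the 74 tested genes of the 8 lists at 72 h (left) and 24 h (right) of CDDO-Me against DMSO, 1 point per gene, red where the edgeR adjusted p was under 0.05. GPAT3 stands to the right in both plots, at 1.57 and 1.61, and the SRF and YAP targets lie further to the left at 24 h, with a median of -0.81, than at 72 h, with a median of -0.17.

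On chromosome 8 the nearest tested genes beside ENPP2 were CCN3 and MAL2 on one side and TAF2 and DSCC1 on the other, 57.3 to 311 kb away. CCN3, a matricellular protein gene 133 kb from ENPP2, rose at 72 h. It had 31.0, 31.8 and 34.3 CPM at 72 h, 30.8, 29.1 and 25.7 CPM at 24 h, and 21.7, 24.4 and 24.3 CPM in DMSO. Its log2 fold change was 0.46 ± 0.10 (SE; edgeR adjusted p = 0.0141) at 72 h and 0.28 (edgeR adjusted p = 0.232) at 24 h against DMSO. The 72 h call was lost without CDDO-Me 72 h replicate 2 (0.0579) or 3 (0.0995), and the 24 h value was 0.35 (edgeR adjusted p = 0.0308) without CDDO-Me 24 h replicate 3. TAF2, DSCC1 and MAL2 had log2 fold changes of 0.10, 0.22 and -0.72 at 72 h against DMSO and were not called there.

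Among 11986 tested genes with an average log2 CPM of at least 1 and a symbol, NQO1 had the pattern most like that of ENPP2, with a Pearson r of 0.993 over log2 CPM in the 9 libraries. EFEMP1, a fibulin of the extracellular matrix, and NXPE3 had an r of 0.987 each. MAP2, a microtubule protein gene, had an r of 0.978. The genes most opposed were SPOCD1 at -0.987, MYOCD, a coactivator of SRF in smooth and heart muscle, at -0.985, and TEX2 at -0.984. MYOCD had 2.55 CPM at 72 h, 4.46 CPM at 24 h and 15.9 CPM in DMSO. These values describe likeness over libraries of the same 3 groups, and the median r over all these genes was 0.0193.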

How the data were processed

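The authors deposited whole-number read counts per Ensembl gene, with no normalization, for 9 libraries, and all column names match sample labels. Per the submitters' processing notes, STAR, SAMtools, Subread and featureCounts were used with hg38 and GRCh38. Not given in the sources used here are the annotation release and the strand and multiple-mapping settings. Gene positions are those of the deposited table, and 57717 of 58299 IDs had a symbol.

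The counts were tested with edgeR 4.0.16 in R 4.3.3 (quasi-likelihood, robust, filterByExpr, trimmed mean of M values), all 9 libraries in 1 fit of 3 group means with 6 residual degrees of freedom. This kept 14965 genes, which held 99.87 to 99.9% of counts. Benjamini-Hochberg adjustment ran over all tested genes, with a threshold of 0.05, and log2 fold changes carry a standard error (SE). For edgeR, ENPP2 included, the SE is the absolute log2 fold change divided by the square root of the quasi-likelihood F statistic. The common biological coefficient of variation was 11.5%. CPM and RPKM were computed from the deposited counts, RPKM with the table's exonic lengths. No replicate pair agreed within sampling noise (lowest chi-square per degree of freedom 2.09). The code was tested on simulated data.

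The genes, lists and tests were chosen with earlier results of these data known. Named genes are the 8 chosen genes, from each list and comparison up to 3 called genes with the smallest adjusted p and the strongest opposite call (or the most expressed gene where none was called), the 5 most like and 3 most opposed to ENPP2, genes overlapping the chosen ones (of 13, those sharing exonic bases or with counts), the nearest tested neighbours of ENPP2, NQO1 and HMOX1. A gene that this rule names is not reported here. Alternatives were other size factors, filters and tools (DESeq2 1.42.0, limma-voom 3.58.1), a replicate block, only the compared groups, and libraries left out.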

Additional observations from a re-analysis of the deposited data

Results flagged for a closer look

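For 3 genes of LPA signalling the change at 72 h and the change at 24 h, both against the same DMSO libraries, differed. This was edgeR's quasi-likelihood test of 72 h against 24 h, which called 3 of 74 list genes and 1.02% of all tested genes. The 3 genes were already named above by this same call, so the flag adds no separate support. For RHOB the log2 difference was 1.49 (adjusted p = 1.09e-05), with all 72 h libraries above all 24 h libraries. For CCN1 it was 0.99 (adjusted p = 1.83e-05), again with no overlap. For SRF it was 0.37 (adjusted p = 0.0386), and this call was lost without DMSO replicate 2 (adjusted p = 0.0617), without 24 h replicate 1 (0.0648) or 2 (0.169), and without any 72 h replicate (0.185 to 0.203), and it did not pass with limma-voom (0.0530). The length of treatment in the 24 h group also differed from that of the other groups, and the labels give no culture time. The part of time in these differences cannot be told apart from that of CDDO-Me.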

How the results depend on the processing

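In 21 alternatives the log2 difference of ENPP2 was 2.12 to 2.35, 1.35 to 1.59 and 0.70 to 0.81. These are 72 h against DMSO, 24 h against DMSO and 72 h against 24 h, the order used for all values below. ENPP2 was chosen for its rise in these libraries, so these ranges are a description and no support for it. Of the 7 other genes edgeR called 2, 0 and 0, and leaving out 1 library gave 0 to 2, 0 to 2 and 0 to 0. At 24 h the count was 1 without a filter, 1 with DESeq2, 2 with sample weights in limma-voom and 3 without both libraries that stood apart, and at 72 h against 24 h the last settings gave 1 each. Over the 8 lists 7, 6 and 3 genes were called, and 2 to 11, 4 to 21 and 2 to 19 without single libraries. Sample weights gave 15, 23 and 28, and leaving out both libraries 14, 34 and 33. DESeq2 gave 10 and 7 in the comparisons with 24 h libraries, the compared groups alone 3 and 5, no filter 10 at 24 h, and a fit that was not robust 6 at 72 h against 24 h. Over all genes 901, 321 and 152 were called, and 401 to 1972, 134 to 1657 and 32 to 1843 without single libraries. Sample weights gave 2593, 1656 and 2918, and leaving out both libraries 2724, 3464 and 3471. The compared groups alone gave 1776 at 72 h and 100 at 24 h, no filter 662 and 507 and DESeq2 546 and 388 in the comparisons with 24 h libraries. The cause of these changes was not tested.

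Deviations from the group mean correlated at -0.0277 to 0.0822 between libraries of the same replicate number. Between libraries of different numbers the correlation was -0.109 to 0.0403. Whether replicate numbers pair the libraries is not known, and the main fit did not use them. With the replicate block 2, 0 and 0 of the 7 genes, 6, 5 and 3 of the list genes and 963, 358 and 219 of all genes were called, and neither SPHK1 was still called at 72 h (adjusted p = 0.109) nor MYH9 at 24 h (adjusted p = 0.0511).

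Values near 0 changed sign in some settings. For LPAR3 they were 0.014 (scaling to total counts) and 0.0010 (limma-voom) at 24 h, and 0.0079 (sample weights) and 0.029 (both libraries left out) at 72 h against 24 h. LPAR6 at 72 h was at 0.0085 without both libraries. PLPP3 at 24 h was at -0.075 with sample weights and -0.15 without both libraries, and at 72 h against 24 h at 0.13 and 0.19. Without single libraries the range for 72 h against 24 h was -0.081 to 0.059 for LPAR1, -0.10 to 0.031 for LPAR3, -0.20 to 0.70 for LPAR6 and -0.19 to 0.19 for PLPP3. At 72 h against DMSO it was -0.13 to 0.33 for LPAR2, -0.11 to 0.050 for LPAR3, -0.76 to 0.069 for LPAR6 and -0.011 to 0.13 for PLPP2. At 24 h against DMSO it was -0.058 to 0.067 for LPAR3 and -0.13 to 0.26 for PLPP3. LPAR6 had no value with a filter of 1 CPM in 3 libraries.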
